A study of Mus musculus with 6 samples.

Results

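Necroptosis and death receptor signalling was followed here through 10 genes, chosen by symbol among the 16000 genes of the count table: Tnfrsf1a, Fas, Fadd, Casp8, Cflar, Birc2, Ripk1, Ripk3, Mlkl and Gsdmd. All 10 are listed in both deposited tables and all 10 entered the fit. The genes were picked with the contrast of knockout and wild-type cells in view, so their differences in that contrast are given as a description and no test is read from them. The cells are NIH3T3, an established line of mouse embryonic fibroblasts. In 3 libraries they carry the genotype Rai16 KO and in 3 they are wild type (KO and WT below), and serum had been withdrawn from all 6. The sources used here give neither the lesion behind the knockout nor whether a group's libraries come from separate clones or cultures. The spread that the p-values below rest on is that among these libraries and may be technical.

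Death receptors such as Fas and TNF receptor 1 (Tnfrsf1a) signal through death domains. Fadd carries the signal from the receptor complex to caspase-8, which starts apoptosis, and c-FLIP (Cflar), a relative of caspase-8 without protease activity, limits it. At TNF receptor 1 the ubiquitin ligase cIAP1 (Birc2) modifies the kinase Ripk1 and favours survival. Where caspase-8 is blocked, Ripk1 and Ripk3 join through a shared motif called RHIM, Ripk3 phosphorylates the pseudokinase Mlkl, and Mlkl breaks the plasma membrane, which is necroptosis. Gsdmd is the pore-former of pyroptosis, another lytic death. Fibroblasts are a classic system for this pathway, and sublines of NIH3T3 are known to differ in whether they express Ripk3.

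Totals ran from 16741607 to 18368760 counts per library. A gene was called when its adjusted p was under 0.05 in edgeR's quasi-likelihood test over all genes tested. The targeted gene, listed as Fam160b2, had 410, 394 and 390 counts in KO replicates 1, 2 and 3, against 440, 375 and 411 in WT replicates 1, 2 and 3, and did not pass the test (log2 fold change −0.12 ± 0.075 SE; adjusted p = 0.184, edgeR). Counts over a whole gene can miss a small lesion, so the groups rest on their labels. KO replicate 2 stood apart: its counts differed from those of KO replicates 1 and 3 by a chi-square of 28.6 and 26.5 per degree of freedom, against 1.72 between KO replicates 1 and 3 and 1.90 to 2.25 among WT pairs. The 14 fibroblast markers listed summed to 7348 to 7511 FPKM in KO and 6499 to 6630 FPKM in WT. The 12 leukocyte markers found in the tables summed to 13.2 to 16.9 FPKM in KO and 16.1 to 17.1 FPKM in WT. Single leukocyte markers went both ways. Of the 3 tested, Cd68 was at 4.95 ± 0.168 CPM in KO and 3.46 ± 0.161 CPM in WT (adjusted p = 0.00858, edgeR). Csf1r was at 1.81 ± 0.511 CPM in KO and 0.387 ± 0.171 CPM in WT. Its WT libraries alone would not have entered the fit, so no p is given. Cd14, which with a mean of 9.42 FPKM in KO and 12.8 FPKM in WT made up most of the sum, was at 15.6 ± 2.41 CPM in KO and 21.3 ± 0.380 CPM in WT (adjusted p = 0.00605, edgeR). The pan-leukocyte gene Ptprc had 6 counts in all KO libraries and 13 in all WT libraries, and the macrophage gene Lyz2 had 25 in KO and 9 in WT. Of other cell types, 6 epithelial genes summed to 2.50 to 3.22 FPKM in KO and 0.966 to 1.18 FPKM in WT. Most of that was Krt8, with means of 2.42 FPKM in KO and 0.578 FPKM in WT. Cdh1 had 20 counts in KO and 32 in WT. The 9 endothelial genes summed to 0.930 to 2.02 FPKM in KO and 0.579 to 0.818 FPKM in WT. Among them Cdh5 averaged 0.437 FPKM in KO and 0.0533 FPKM in WT, and Esam had 18 counts in KO and 26 in WT. None of these marker genes was at 0 in all 6 libraries, and the part of other cell types in the results was not tested.

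Promoter windows of RefSeq (build GRCm38.p6, 250 bases before to 50 after an annotated start) were found for 9 of the 10 genes, Gsdmd being the other. The 3 shown belong to Ripk3, the member that differed most between the groups, to Mlkl, its substrate, and to Cflar, the member that was lowest in KO relative to WT. Capitals mark matches, on either strand, to the motifs searched: TATAAA, the GC box GGGCGG, the E-box CACGTG, the AP-1 site TGACTCA, the interferon element core (GAAA, any 2 bases, GAAA), and the NF-kappaB motif. The windows are chr14:55788808-55789107 on the minus strand for Ripk3, chr8:111338156-111338455 on the minus strand for Mlkl and chr1:58711241-58711540 on the plus strand for Cflar.
Ripk3: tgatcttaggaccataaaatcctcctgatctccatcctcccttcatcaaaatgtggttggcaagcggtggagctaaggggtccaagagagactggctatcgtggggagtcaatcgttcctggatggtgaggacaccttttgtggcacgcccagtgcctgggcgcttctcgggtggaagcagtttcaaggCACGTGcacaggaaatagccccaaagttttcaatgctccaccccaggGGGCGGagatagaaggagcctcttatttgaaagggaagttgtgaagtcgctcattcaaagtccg
Mlkl: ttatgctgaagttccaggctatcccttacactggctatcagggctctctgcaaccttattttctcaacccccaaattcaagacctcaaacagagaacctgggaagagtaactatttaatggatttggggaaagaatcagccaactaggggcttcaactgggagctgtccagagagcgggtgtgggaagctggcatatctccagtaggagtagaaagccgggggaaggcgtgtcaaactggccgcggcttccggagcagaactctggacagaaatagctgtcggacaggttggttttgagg
Cflar: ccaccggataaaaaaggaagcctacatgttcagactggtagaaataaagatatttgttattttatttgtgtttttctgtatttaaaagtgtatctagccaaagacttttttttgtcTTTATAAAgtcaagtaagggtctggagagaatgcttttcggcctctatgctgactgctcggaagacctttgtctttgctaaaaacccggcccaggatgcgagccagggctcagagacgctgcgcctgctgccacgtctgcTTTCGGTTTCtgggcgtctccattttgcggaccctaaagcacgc
The Ripk3 window held an E-box at −61 to −56 and a GC box at −14 to −9, counted from the annotated start. Among all 32851 such windows, 7.15% hold an E-box and 35.7% a GC box. The Cflar window held TATAAA on both strands, overlapping between −134 and −127 (13.6% of windows hold it), and the interferon element core on the minus strand at 7 to 16 (3.44% of windows). None of the 6 motifs was found in the Mlkl window, which says only that these letters are not in it. The shares of windows with an AP-1 site and an NF-kappaB motif were 5.2% and 8.46%, and neither was found in the 3 windows. CpG dinucleotides numbered 10 in the Ripk3 window, 7 in that of Mlkl and 12 in that of Cflar, against a median of 7 over all windows, with quartiles of 3 and 20. Windows of other members, not shown, held some of the same motifs. The Fas window also held an E-box (−110 to −105), and GC boxes were found for Ripk1, Fadd, Fas and Birc2. A window of Ripk1 held the interferon element core at −5 to 5. Among the members only Cflar had TATAAA. A match is a description of the sequence and not a site of binding.

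Ripk3, the kinase that commits cells to necroptosis, was nearly missing from WT and present in every KO library, while its substrate Mlkl was abundant in both groups. KO replicates 1, 2 and 3 had 99, 121 and 121 counts of Ripk3, against 3, 2 and 2 counts in WT replicates 1, 2 and 3. As CPM, which scales counts to library totals adjusted by TMM, these were 5.37, 6.59 and 6.81 in KO and 0.173, 0.120 and 0.115 in WT. The lowest KO library thus lay far above the highest WT library. Summed counts were 341 in KO and 7 in WT, a ratio of 45.9 after scaling (95% counting interval 22.0 to 115, exact binomial, counting error only). The fitted log2 fold change of KO over WT was 5.45 ± 0.28 (SE), place 21 from the top among 11972 genes tested, and the counting interval is wider than this error implies. Ripk3 entered the fit through its KO libraries alone, so it had to differ between the groups. The knockout and a difference of clone or subline between the groups cannot be told apart in this design. In bulk RNA, fewer cells with a transcript and less transcript per cell cannot be told apart.

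Mlkl, the executioner of necroptosis, was high throughout, with 158, 167 and 162 CPM in KO replicates 1, 2 and 3 and 136, 121 and 128 CPM in WT replicates 1, 2 and 3. Every KO library lay above every WT library, by a much smaller step than for Ripk3. The log2 fold change was 0.34 ± 0.063 (SE), a 1.26-fold higher level in KO. Ripk1, the kinase that recruits Ripk3 and also supports survival signalling, went the other way. It had 66.8, 57.6 and 69.3 CPM in KO and 90.7, 91.5 and 88.3 CPM in WT, without overlap, with KO replicate 2 lowest. Its log2 fold change was −0.48 ± 0.074 (SE). In the RefSeq annotation Ripk1 overlaps Serpinb6a, a protease inhibitor gene that averaged 189 ± 26.9 CPM in KO and 186 ± 4.40 CPM in WT (SD, n = 3 each) and did not pass the test (log2 fold change 0.02 ± 0.094; adjusted p = 0.847, edgeR). Ripk3 overlaps Gm32092, a long noncoding RNA gene not analysed here. The strand setting of the counting is not given, so reads of overlapping genes on opposite strands may not have been told apart.

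**Figure D1:**
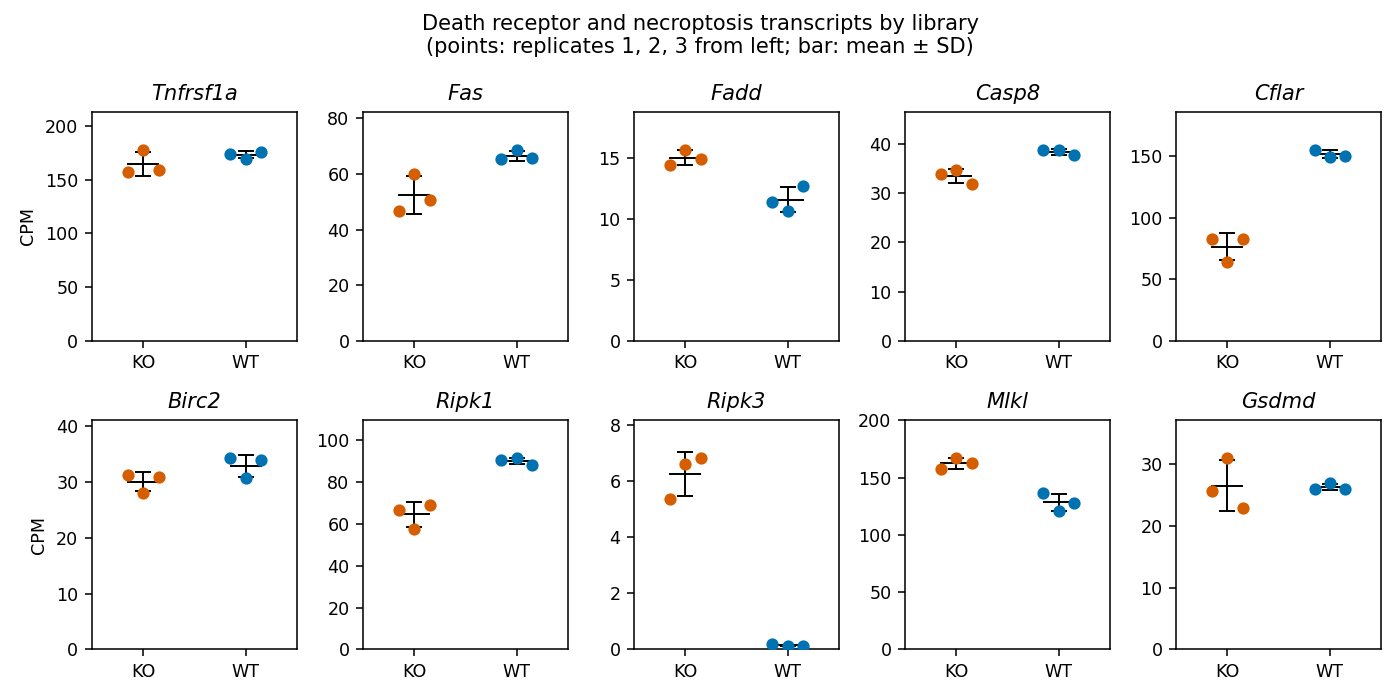
CPM (vertical axes, each from 0) of the 10 genes in the 3 KO and 3 WT libraries; points are replicates 1, 2 and 3 from the left and bars the mean ± SD. Ripk3 lay between 5.37 and 6.81 CPM in KO and at or below 0.173 CPM in WT, and Cflar was at 63.9 to 83.1 CPM in KO and 150 to 155 CPM in WT.

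The brake on caspase-8 was the member that was lowest in KO relative to WT. Cflar, encoding c-FLIP, had 82.7, 63.9 and 83.1 CPM in KO replicates 1, 2 and 3, against 155, 150 and 150 CPM in WT replicates 1, 2 and 3. All KO libraries lay below all WT libraries, and KO replicate 2 was the lowest. The log2 fold change was −0.99 ± 0.097 (SE), a 1.98-fold lower level in KO. Casp8 itself had 33.9, 34.7 and 31.9 CPM in KO and 38.8, 38.8 and 37.7 CPM in WT. The groups did not overlap, but the step was small, with a log2 fold change of −0.20 ± 0.063 (SE). Its call was lost without KO replicate 3 (−0.16), without WT replicate 1 (−0.19) and without WT replicate 2 (−0.19). Fadd, the adaptor that brings caspase-8 to the receptors, was higher in KO, with 14.4, 15.6 and 14.9 CPM against 11.4, 10.6 and 12.6 CPM in WT, again without overlap. Its log2 fold change was 0.37 ± 0.095 (SE).

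Of the receptors, Fas differed between the groups and Tnfrsf1a overlapped. Fas, the receptor of Fas ligand, had 46.8, 59.8 and 50.5 CPM in KO replicates 1, 2 and 3 and 65.2, 68.6 and 65.7 CPM in WT replicates 1, 2 and 3. KO replicate 2 came closest to WT, and the log2 fold change was −0.34 ± 0.089 (SE). Tnfrsf1a had 157, 178 and 159 CPM in KO and 174, 170 and 176 CPM in WT. KO replicate 2 lay above all WT libraries and the other KO libraries below them. The log2 fold change of Tnfrsf1a was −0.07 ± 0.064 (SE; 95% interval −0.22 to 0.07), and without KO replicate 2 it was called at −0.13.

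Birc2, the cIAP1 ligase, and Gsdmd, the pyroptosis pore, overlapped between the groups too. Birc2 had 31.3, 28.1 and 30.9 CPM in KO and 34.3, 30.7 and 33.9 CPM in WT, a log2 fold change of −0.13 ± 0.075 (SE; 95% interval −0.30 to 0.04). Gsdmd had 25.7, 30.9 and 22.9 CPM in KO and 26.0, 26.9 and 26.0 CPM in WT, a log2 fold change of 0.01 ± 0.11 (SE; 95% interval −0.23 to 0.25). The KO libraries of Gsdmd spanned the WT values on both sides, with a coefficient of variation of 15.4% in KO and 1.98% in WT. Without KO replicate 2 its log2 fold change was −0.11, not called.

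Of the 10 genes 7 were called, 3 higher in KO (Ripk3, Fadd and Mlkl) and 4 lower (Cflar, Ripk1, Fas and Casp8). Over all genes tested 59.6% were called, 30.5% higher and 29.2% lower. Ranges of CPM were apart for 7 of the 10, against 67.6% of all genes tested. Since the genes were chosen with this contrast in view, nothing is read from either count. Ripk3 is in both counts, though it entered the fit through its KO libraries alone and so had to differ. It changed at least 2-fold, while Cflar at 1.98-fold lay just short. Over all genes tested 10.9% were called and changed at least 2-fold, and nothing is read from that share beside Ripk3. The median log2 fold change was −0.10 over the 10 genes and 0.0028 over all genes tested.

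KO replicate 2 deviated from the mean of KO replicates 1 and 3 in both directions. On the log2 scale its CPM differed by −0.37 for Cflar, −0.24 for Ripk1 and −0.14 for Birc2, and by 0.35 for Gsdmd, 0.30 for Fas and 0.17 for Tnfrsf1a. For Ripk3, Fadd, Casp8 and Mlkl the difference lay between 0.06 and 0.11. The median size of this deviation was 0.156 over the 10 genes and 0.176 over all genes tested.

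Neighbouring genes on the chromosome were set beside each member, taking the 5 tested genes on either side in the RefSeq order of GRCm38.p6. Ripk3, on chromosome 14, lay far above its 10 neighbours, which had a median log2 fold change of −0.10 and ranged from −1.02 to 1.40. Cflar and Casp8 lie close together on chromosome 1 and share 8 of their neighbours. The 10 neighbours of Cflar, Casp8 included, had a median of −0.58, with 7 called lower and 0 higher. The 10 neighbours of Casp8, Cflar included, likewise had a median of −0.58, with 7 called lower and 0 higher. The 10 neighbours of Ripk1 on chromosome 13 had a median of −0.50, close to the −0.48 of Ripk1, but ranged from −4.14 to 2.09. For Fas, on chromosome 19, the neighbours had a median of 0.23, of opposite sign to Fas. The neighbours of Mlkl on chromosome 8 had a median of 0.01 and those of Fadd on chromosome 7 a median of 0.27. How far the stretch of chromosome takes part in the difference of a member was not tested.

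**Figure D2:**
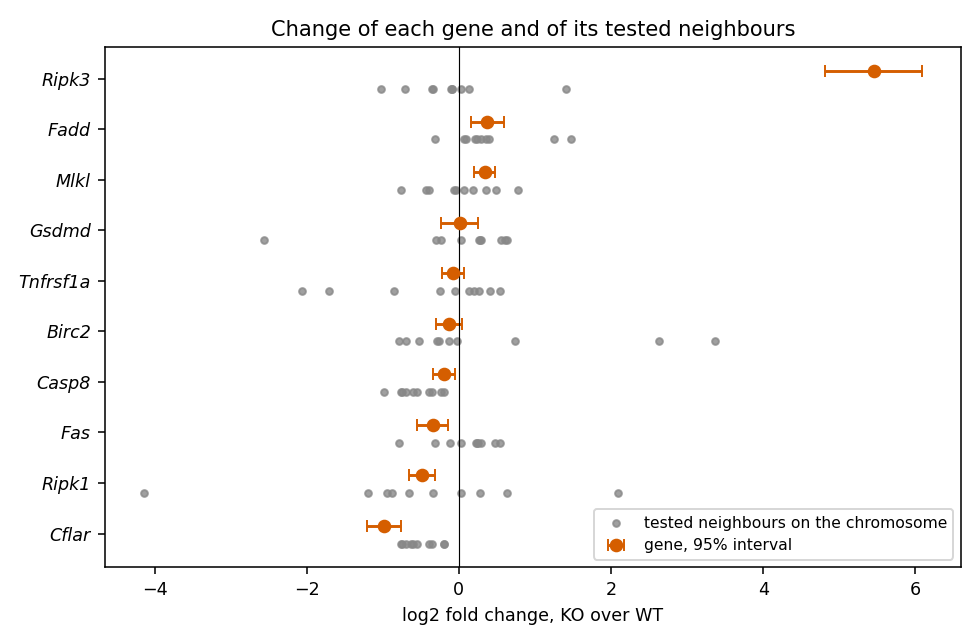
Log2 fold change of KO over WT (horizontal axis) for each of the 10 genes with its 95% interval, and for the 5 tested genes on either side of it (grey points). Ripk3 at 5.45 lay far from its neighbours, which ended at 1.40, whereas the neighbours of Cflar and Casp8 all lay below 0.

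Levels of different genes were compared on the FPKM scale, which divides by gene length. In KO the order from high to low was Tnfrsf1a, Mlkl, Fas, Gsdmd, Casp8, Cflar, Birc2, Fadd, Ripk1 and Ripk3. Casp8 and Cflar overlapped in KO (11.1 ± 0.541 and 9.73 ± 1.34 FPKM, SD, n = 3), as did Birc2 and Fadd (5.73 ± 0.300 and 5.23 ± 0.236 FPKM), and the other neighbours in the order did not overlap. In WT the order was Tnfrsf1a, Mlkl, Fas, Cflar, Gsdmd, Casp8, Birc2, Ripk1, Fadd and Ripk3, and no neighbours in it overlapped. Cflar thus stood above Casp8 in WT and overlapped with it in KO. Tnfrsf1a, the most abundant in both groups, averaged 76.7 ± 5.74 FPKM in KO and 80.0 ± 1.49 FPKM in WT. Ripk3, the scarcest in both, averaged 3.20 ± 0.394 FPKM in KO and 0.0689 ± 0.0164 FPKM in WT. Its KO level exceeded that of 43.3% of all genes listed, and its WT level that of 20.8%, while Mlkl exceeded 93.0% in KO and 91.1% in WT.

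Ratios of FPKM within a library set partners of the pathway side by side. Ripk3 over Ripk1 was 0.678, 0.964 and 0.830 in KO replicates 1, 2 and 3, against 0.0161, 0.0111 and 0.0110 in WT replicates 1, 2 and 3. Ripk3 was thus somewhat below its RHIM partner in each KO library and a small fraction of it in each WT library. Mlkl exceeded Ripk3 in both groups, by 17.5-fold in KO and 637-fold in WT (inverse of the mean ratio). The WT ratios with Ripk3 rest on 3, 2 and 2 counts of it in WT replicates 1, 2 and 3, so their size is uncertain. Cflar over Casp8 was 0.937, 0.708 and 1.00 in KO and 1.53, 1.48 and 1.53 in WT. Fadd over Casp8 averaged 0.472 ± 0.0213 in KO and 0.317 ± 0.0332 in WT (SD, n = 3 each). These ratios restate the levels above and carry no test.

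**Figure D3:**
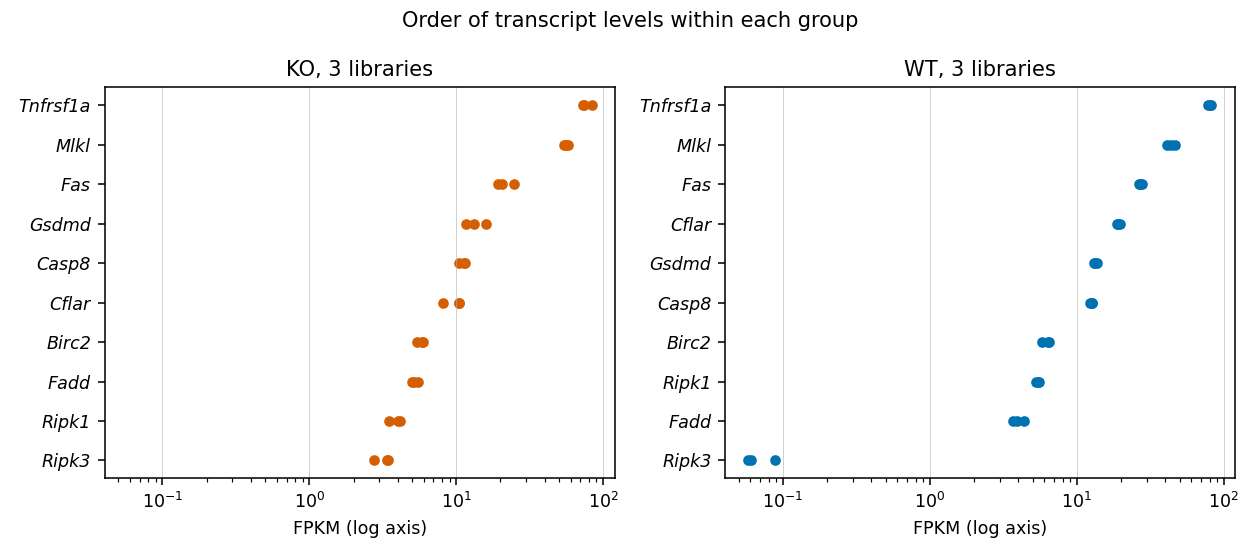
FPKM (horizontal log axis) of the 10 genes in the 3 KO libraries and the 3 WT libraries, each panel ordered by the group's own mean. Ripk3 is last in both, at 2.74 to 3.46 FPKM in KO and 0.0582 to 0.0878 FPKM in WT, and Cflar holds place 6 in KO and place 4 in WT.

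The wider pathway was described by 8 lists of genes taken from their roles (134 entries, of which 120 are in the tables and 108 were tested). Of these 108 genes 34 were higher and 31 lower in KO, 60.2% in all, beside 59.6% of all genes tested. Their median log2 fold change was 0.05. The share called per list ran from 46.2% (caspases and their mitochondrial arm) to 70% (gasdermins and inflammasome). For each list's counts below, the shares over all genes tested were 30.5% higher and 29.2% lower. The lists are described by counts, and none was set against the rest by a test. They were chosen with earlier results of these data known. Genes named from them are mainly the largest calls of this same contrast, so their adjusted p is descriptive.

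Ligands that open the pathway were scarce. Tnf had 1 count in all KO libraries and 2 in all WT libraries, and Fasl, the ligand of Fas, had 2 in KO and 4 in WT. Of 5 ligands tested, 2 rose and 1 fell, with a median log2 fold change of 0.43. On the log2 scale Tnfsf10, encoding TRAIL, fell by 3.09 ± 0.33 (SE). It was at 0.257 ± 0.0838 CPM in KO and 2.24 ± 0.413 CPM in WT (SD, n = 3 each). All KO libraries held 14 counts of it and all WT libraries 115. Tnfsf10 entered the fit through its WT libraries alone, so it had to differ between the groups and no p is given. The interleukin gene Il1a rose by 0.78 ± 0.22 (adjusted p = 0.0132, edgeR), but without WT replicate 1 its log2 fold change was 0.62 and not called.

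Among 12 other receptors of the TNF superfamily, 3 rose and 3 fell (median log2 fold change −0.06). Tnfrsf10b, the mouse TRAIL death receptor, was at 28.2 ± 1.37 CPM in KO and 15.2 ± 0.876 CPM in WT, which on the log2 scale is a rise of 0.89 ± 0.079 (SE; adjusted p = 2.04e-05, edgeR). Tnfrsf10b was thus higher and Tnfsf10, the TRAIL gene, lower in KO, which does not hold for every receptor of this list. Named after their values were seen, Tnfrsf23 was lower in KO and Tnfrsf22 did not pass. Their log2 fold changes were −0.46 ± 0.061 for Tnfrsf23 and −0.07 ± 0.081 for Tnfrsf22 (adjusted p = 2.12e-04 and 0.477, edgeR). The decoy receptor gene Tnfrsf11b rose by 0.55 ± 0.094 (adjusted p = 9.52e-04, edgeR). Tnfrsf14 fell by 0.66 ± 0.15 and Tnfrsf1b, encoding TNF receptor 2, by 0.49 ± 0.055 (adjusted p = 0.00461 and 8.75e-05, edgeR).

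The receptor complex and its ubiquitin enzymes counted 10 rises and 10 falls among 29 genes, with a median of 0.07. The count of 20 called ran from 14 to 23 with a library left out. Traf1, an adaptor of TNF receptors, rose by 1.52 ± 0.36 (SE) on the log2 scale. It was at 1.52 ± 0.166 CPM in KO and 0.526 ± 0.266 CPM in WT. The WT libraries of Traf1 alone would not have entered the fit, so no p is given. Tnfaip3, whose product A20 edits ubiquitin on Ripk1, was at 32.1 ± 1.09 CPM in KO and 17.8 ± 0.626 CPM in WT, a rise of 0.85 ± 0.070 (adjusted p = 1.22e-05, edgeR). Ikbkg, encoding the ubiquitin-binding subunit NEMO, fell by 0.82 ± 0.084 to 92.7 ± 10.8 CPM in KO against 164 ± 2.81 CPM in WT (adjusted p = 4.61e-05, edgeR). The caspase inhibitor gene Xiap fell by 0.55 ± 0.13 (adjusted p = 0.0053, edgeR). Named after their values were seen, Birc3, the paralogue of Birc2, fell by 0.52 ± 0.081 and Tradd, the death-domain adaptor of TNF receptor 1, rose by 0.59 ± 0.13 (adjusted p = 5.47e-04 and 0.00376, edgeR).

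Other RHIM proteins and regulators of the necrosome counted 6 rises and 2 falls among 16 genes (median 0.02). Of these 16 genes 50% were called, beside 59.6% of all genes tested. Zbp1, a nucleic acid sensor that engages Ripk3 through its RHIM, was at 176 ± 12.4 CPM in KO and 118 ± 8.91 CPM in WT, which on the log2 scale is a rise of 0.58 ± 0.077 (SE; adjusted p = 2.12e-04, edgeR). Hsp90aa1, of the chaperone that stabilises kinases including Ripk1 and Ripk3, rose by 0.51 ± 0.057 (adjusted p = 7.51e-05, edgeR). Ppm1b, a phosphatase that acts on Ripk3, fell by 0.46 ± 0.059, and the receptor gene Tlr4 fell by 0.41 ± 0.095 (adjusted p = 1.66e-04 and 0.00541, edgeR). The RHIM adaptor gene of Toll-like receptors, Ticam1, did not pass (0.08, adjusted p = 0.323, edgeR; named after its value was seen). Euclidean distance was taken over 6 libraries between centred log2 CPM profiles. The nearest of 108 list genes to Ripk3 were Traf1 (4.14), Tnfrsf10b (4.66) and Tnfaip3 (4.70). The Ripk3 profile itself had a length of 5.74, so none of them lay close to it. A profile with so large a rise lies nearest to the genes that rise most, so this order restates their fold changes.

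Downstream, caspases and the mitochondrial arm counted 5 rises and 1 fall among 13 genes (median 0.18). Of these 13 genes 46.2% were called, beside 59.6% of all genes tested. Htra2, a mitochondrial protease released in apoptosis, rose by 0.70 ± 0.088 (SE) on the log2 scale to 111 ± 13.7 CPM in KO against 68.7 ± 2.75 CPM in WT (adjusted p = 1.64e-04, edgeR). The caspase gene Casp2 fell by 0.54 ± 0.070 (adjusted p = 1.89e-04, edgeR). Bid, the link from caspase-8 to mitochondria, rose by 0.53 ± 0.078 (adjusted p = 3.93e-04, edgeR; named after its value was seen). Other BCL2 family members counted 3 rises and 2 falls among 8 (median 0.09). The pro-apoptotic gene Bad rose by 0.66 ± 0.084 and the survival gene Bcl2l1 by 0.56 ± 0.071 (adjusted p = 1.68e-04 and 1.66e-04, edgeR). Bbc3, encoding PUMA, fell by 0.64 ± 0.11 and the survival gene Bcl2l2 by 0.47 ± 0.082 (adjusted p = 7.13e-04 and 9.83e-04, edgeR).

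Gasdermins and inflammasome genes counted 0 rises and 7 falls among 10 (median −0.49), with Gsdmd itself outside this list. Over all genes tested 29.2% were called lower. Of the 3 not called, Nlrp1b (0.54 ± 0.26) and Ninj1 (0.06 ± 0.11) lay above 0 and Nek7 (−0.06 ± 0.053) below. Nlrp3 was not tested, with 54 counts in all KO libraries and 14 in all WT libraries. Nlrp1a, also not tested, had 1 in KO and 8 in WT. Aim2, a sensor of cytosolic DNA, fell by 2.21 ± 0.10 (SE) on the log2 scale to 5.39 ± 0.326 CPM in KO against 24.9 ± 1.95 CPM in WT (adjusted p = 3.98e-07, edgeR). Casp4, the mouse caspase-11 gene whose product cleaves Gsdmd, fell by 0.85 ± 0.064 to 51.9 ± 2.36 CPM in KO against 93.8 ± 4.61 CPM in WT (adjusted p = 6.72e-06, edgeR). The other 5 falls are named after their values were seen. Casp1, whose product also cleaves Gsdmd, had 16 counts in all KO libraries and 66 in all WT libraries and fell by 2.10 ± 0.37. Casp1 entered the fit through its WT libraries alone, so it had to differ between the groups and no p is given. Casp12 fell by 0.79 ± 0.063 and the gasdermin gene Gsdme by 0.75 ± 0.11 (adjusted p = 1.06e-05 and 4.55e-04, edgeR). Dpp9, an inhibitor of Nlrp1, fell by 0.24 ± 0.057 (adjusted p = 0.00594, edgeR). Il18, a cytokine released in pyroptosis, fell by 0.23 ± 0.088 (adjusted p = 0.0457, edgeR). The call of Il18 was lost without KO replicate 1 (−0.22) or KO replicate 3 (−0.20), and without WT replicate 1 (−0.20), WT replicate 2 (−0.28) or WT replicate 3 (−0.22).

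The ESCRT machinery, which repairs membranes pierced by Mlkl or Gsdmd, counted 5 rises and 5 falls among 15 genes (median 0.10). Vps4a and Chmp1a rose by 0.32 ± 0.074 and 0.31 ± 0.055 (SE) on the log2 scale, and Vps4b and Chmp2a fell by 0.50 ± 0.054 and 0.46 ± 0.10. Adjusted p for these 4 genes ran from 6.00e-05 to 0.00484 (edgeR). Vps4a and Vps4b encode related ATPases of the same complex and moved in opposite directions. The count of 10 called was 6 without WT replicate 1, without WT replicate 2 and without WT replicate 3.

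**Figure D4:**
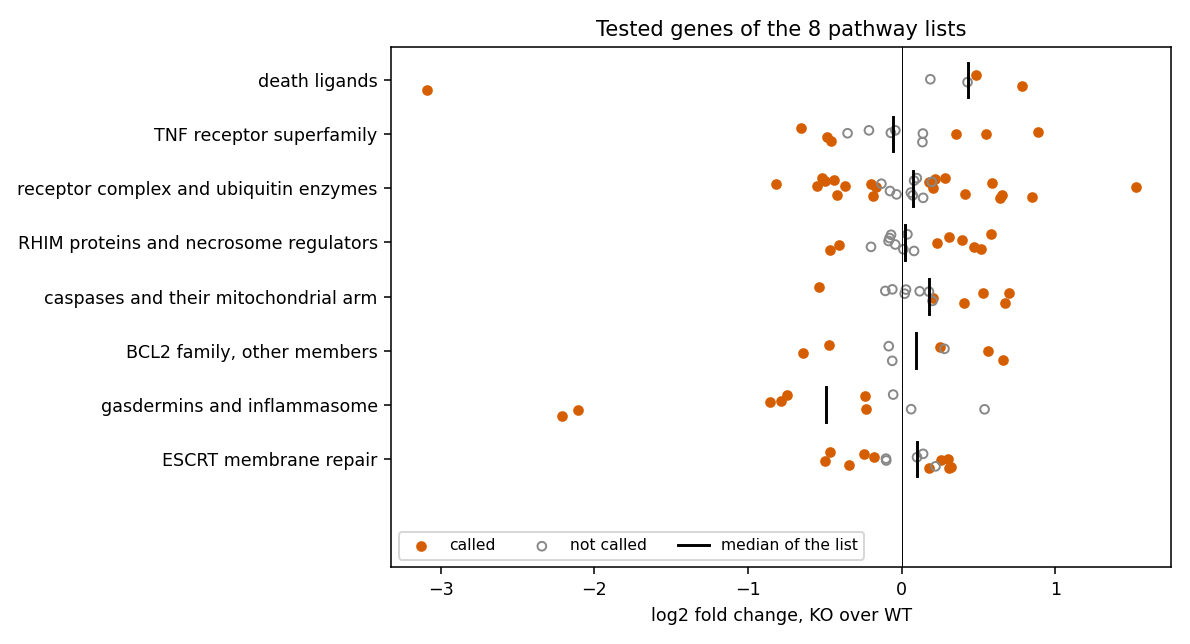
Log2 fold change of KO over WT (horizontal axis) for the 108 tested genes of the 8 pathway lists; filled points were called, open points were not, and the black line is the median of the list. Called genes lie on both sides of 0 in each list but gasdermins and inflammasome, where all 7 lie below 0.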

How the data were processed

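RNA of 6 libraries, 3 KO and 3 WT, was measured by sequencing of TruSeq Stranded mRNA libraries, per the labels' protocols. The authors deposited raw read counts per gene and FPKM values per gene, 1 column per library. Trimmomatic, HISAT2, Cufflinks, HTSeq and DESeq with build GRCm39 are named in the submitters' processing notes. FPKM served for levels between genes, counts for everything else. Versions, settings and strand handling of that processing were not given in the sources used here.

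Counts were filtered with filterByExpr (11972 of 16000 genes), scaled by TMM and tested with edgeR 4.0.16 (R 4.3.3) by the quasi-likelihood test, KO against WT, with Benjamini-Hochberg adjustment and a call under 0.05. The standard error is the size of the log2 fold change over the square root of F. Intervals on fold changes come from it. The code was tested on simulated data. DESeq2 1.42.0 and limma 3.58.1 (voom) were alternatives.

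Members and lists were chosen with earlier results of these data known. Named were all members and, per list, up to 2 called rises and 2 called falls of largest size at a mean of at least 1 CPM. Some genes that the rule takes are not reported here. Of the tested genes, 11941 had a RefSeq position. The promoters are on GRCm38.p6, not the build of the files.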

Additional observations from a re-analysis of the deposited data

How the results depend on the processing

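Of the 10 genes, 7 were called under RLE size factors, total counts only, no filter, a filter at a mean of 1 CPM, DESeq2 and limma-voom, and 6 to 8 were called when a library was left out. Over all genes 7136 were called, against 6836 by DESeq2, 7106 by limma-voom and 6048 to 8586 with a library left out. Of the pathway genes 65 were called, and 51 to 76 with a library left out. ESCRT genes called ranged from 6 to 11 with a library left out, and those of the receptor complex list from 14 to 23. Gsdmd, never called, turned to a log2 fold change of −0.00018 with RLE size factors, −0.00050 by DESeq2 and −0.11 without KO replicate 2, the low end of −0.11 to 0.11 with a library left out. Il18 also lost its call with total counts only, no filter, DESeq2 and the replicate block. The order of FPKM levels in each group held for all 10 genes with each library left out. It also held as TPM, which says little, since TPM cannot change the order within a library.

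With replicate number as a block, 6692 genes, 57 pathway genes and 7 of the 10 were called. Same-numbered libraries did not deviate together (correlations of −0.07, −0.09 and 0.02). In addition, 0 of 3 KO libraries correlated best with the WT library of their number and 1 of 3 WT libraries with the KO library of its number, so the numbers are taken as names. At 7 counts in WT, depth limits the size of the Ripk3 ratio.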
